A study of Homo sapiens with 6 samples.

Results

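The immune checkpoint ligands examined here are 10 genes whose products sit on, or are released from, the surface of tumour cells and restrain or engage immune cells: CD274, PDCD1LG2, CD276, CD47, PVR, NECTIN2, LGALS9, TNFRSF14, CD70 and NT5E. They were taken by gene name from deposited tables of 57914 genes, in which each name stood on 1 row, and all 10 passed the filter on low counts that left 17047 genes. The cells were A375, an established human melanoma line grown in DMEM with FCS and stained with Aldefluor, a substrate that turns fluorescent inside cells with aldehyde dehydrogenase (ALDH) activity. The ALDH_High group held 3 libraries from the 5% of cells with the strongest signal and the ALDH_Low group 3 from the 5% with the weakest. No drug, genotype or time separated the groups, no immune cells or cytokines are named in the labels, and every library comes from the same line, so the differences below are between parts of 1 cultured population.

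As background, T cells carry the receptor PD-1, which dampens their activation when it meets PD-L1 (encoded by CD274) or PD-L2 (PDCD1LG2), and melanoma was among the cancers in which antibodies to this pair entered treatment. Interferon gamma raises CD274 through its receptor (IFNGR1 and IFNGR2), the kinases JAK1 and JAK2 and the transcription factor IRF1. The other genes act through other partners: CD47 through SIRP-alpha on macrophages, PVR and NECTIN2, between them, through TIGIT, CD96, PVRIG and the activating receptor CD226, and NT5E (CD73) by making extracellular adenosine.

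The promoters of the genes that differed, with that of LGALS9, are shown to set 1 sequence feature beside the expression values: a motif read by interferon regulatory factors, GAAANNGAAA. LGALS9 did not differ past the threshold, and its window was the only one besides that of CD274 to hold this motif. The part of the motif in the expression differences was not tested. RefSeq windows on GRCh38.p14 ran from 250 bases before to 50 bases from the start site on. They were found for 8 of the 10 genes (9 windows, of which 2 belong to CD276). PDCD1LG2 and CD70 had no entry. Sequences run 5′ to 3′ on the gene's strand, and capitals mark matches on either strand to any of the 5 motifs searched.
CD274, chr9:5450292-5450591, plus strand: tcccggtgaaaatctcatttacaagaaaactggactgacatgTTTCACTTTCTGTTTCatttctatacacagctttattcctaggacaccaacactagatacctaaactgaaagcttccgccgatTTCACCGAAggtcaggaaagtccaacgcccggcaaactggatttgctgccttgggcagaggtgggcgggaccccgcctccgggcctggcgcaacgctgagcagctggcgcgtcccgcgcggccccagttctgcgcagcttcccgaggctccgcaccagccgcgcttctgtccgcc
LGALS9, chr17:27630938-27631237, plus strand: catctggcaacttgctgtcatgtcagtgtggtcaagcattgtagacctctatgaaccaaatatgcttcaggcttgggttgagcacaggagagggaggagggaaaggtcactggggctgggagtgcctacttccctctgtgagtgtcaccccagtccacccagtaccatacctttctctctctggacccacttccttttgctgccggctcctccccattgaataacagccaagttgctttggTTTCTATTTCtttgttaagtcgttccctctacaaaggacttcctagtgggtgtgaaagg
NT5E, chr6:85449833-85450132, plus strand: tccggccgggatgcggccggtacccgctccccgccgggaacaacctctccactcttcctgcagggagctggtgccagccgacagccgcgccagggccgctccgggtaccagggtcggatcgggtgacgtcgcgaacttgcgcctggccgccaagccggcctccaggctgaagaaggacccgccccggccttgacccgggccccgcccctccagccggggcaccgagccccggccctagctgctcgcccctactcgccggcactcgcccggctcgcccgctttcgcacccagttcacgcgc
PVR, chr19:44643660-44643959, plus strand: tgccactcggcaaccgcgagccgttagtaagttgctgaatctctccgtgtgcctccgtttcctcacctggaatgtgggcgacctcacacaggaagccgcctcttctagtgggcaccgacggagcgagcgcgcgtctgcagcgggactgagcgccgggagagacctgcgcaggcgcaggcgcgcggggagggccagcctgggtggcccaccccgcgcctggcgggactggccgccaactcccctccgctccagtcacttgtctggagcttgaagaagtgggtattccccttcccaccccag
The CD274 window held overlapping GAAANNGAAA matches on the opposite strand, beginning at positions -208 and -202 from the start site. It also held the gamma-activated sequence TTCNNNGAA at -125, and the LGALS9 window held GAAANNGAAA on the opposite strand at -9. The windows of NT5E and PVR held no match to these motifs, nor to the AP-1 motif TGANTCA, the hypoxia motif ACGTG or the MITF motif CATGTG. Among the other windows, CD47 (-223) and CD276 (-226) held ACGTG, on the same and on the opposite strand, and those of NECTIN2 and TNFRSF14 held none of the 5. Over 35116 RefSeq windows of this length, GAAANNGAAA occurred in 3.57%, TTCNNNGAA in 7.66%, TGANTCA in 7.71%, ACGTG in 21.4% and CATGTG in 11.1%. The motifs do not overlap each other in the printed windows apart from the CD274 pair.

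Total counts lay between 26692868 and 37830603 per library. The first principal component separated the groups, and the second set ALDH_High library 1, at 49.1, apart from ALDH_High libraries 2 and 3, at -22.0 and -32.5, so results that rest on that library are given without it. ALDH1A3, named in the study's title, averaged 973 ± 253 in ALDH_High against 389 ± 39.4 in ALDH_Low, in CPM (counts scaled to a common library size, SD, n = 3). ALDH_High library 1 read 683 CPM for it, beside 1149 and 1088 CPM in ALDH_High libraries 2 and 3. The highest ALDH_Low library read 420 CPM. Of the 10 melanoma markers, none were at 0 throughout, and their sum was higher in ALDH_High (1154 to 1629 CPM) than in ALDH_Low (518 to 587 CPM). SOX10 had 19947 to 21258 counts in ALDH_High and 5835 to 6699 in ALDH_Low, and CSPG4 had 16177 to 20989 and 7961 to 14184. S100B had 936 to 1051 and 18 to 88, and S100A1 had 683 to 1161 and 17 to 63. MITF went the other way, with 329 to 478 counts in ALDH_High and 534 to 1235 in ALDH_Low. PMEL, DCT and TYRP1 had at most 19 counts, and MLANA and TYR never exceeded 3. The white blood cell gene PTPRC had at most 4 counts, CD2, NKG7, GZMB, PRF1 and MS4A1 had 0 counts in all 6 libraries, and the 10 T and NK cell markers together made up 0.388 to 0.824 CPM in ALDH_High and 0.370 to 0.571 CPM in ALDH_Low. The 7 myeloid markers summed to 3.10 to 7.12 CPM in ALDH_High and 2.89 to 3.70 CPM in ALDH_Low: LYZ had 84 to 170 counts in ALDH_High and 24 to 54 in ALDH_Low, CD14 had 3 to 12 and 24 to 31, CSF1R had 6 to 13 and 13 to 54, and FCGR3A was at 0 throughout. The 4 endothelial markers summed to 11.5 to 13.0 CPM in ALDH_High and 2.11 to 2.76 CPM in ALDH_Low. KDR had 330 to 362 counts in ALDH_High and 14 to 38 in ALDH_Low, whereas PECAM1 (3 to 35 and 20 to 35), VWF (7 to 17 and 1 to 32) and CDH5 (5 to 17 and 1 to 10) overlapped between the groups. The part of these marker differences in the results below was not tested. In sorted bulk RNA, fewer cells with a transcript and less transcript per cell cannot be told apart.

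Of the 10 genes, 2 were lower in ALDH_High (CD274 and PDCD1LG2), 2 were higher (NT5E and PVR) and 6 did not pass an adjusted p of 0.05 (edgeR quasi-likelihood test, Benjamini-Hochberg over all genes tested). Over all genes tested, 9.83% were lower, 10.8% higher and 20.6% called in either direction. Groups did not overlap in 4 of the 10 genes, beside 37.8% of all genes tested. The median log2 fold change of the 10 genes was -0.030 and that of all genes tested -0.013. Non-overlap was thus about as frequent as over all genes, and with so few genes the share called cannot be read as a property of the list; the changes described are those of single genes.

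**Figure D1:**
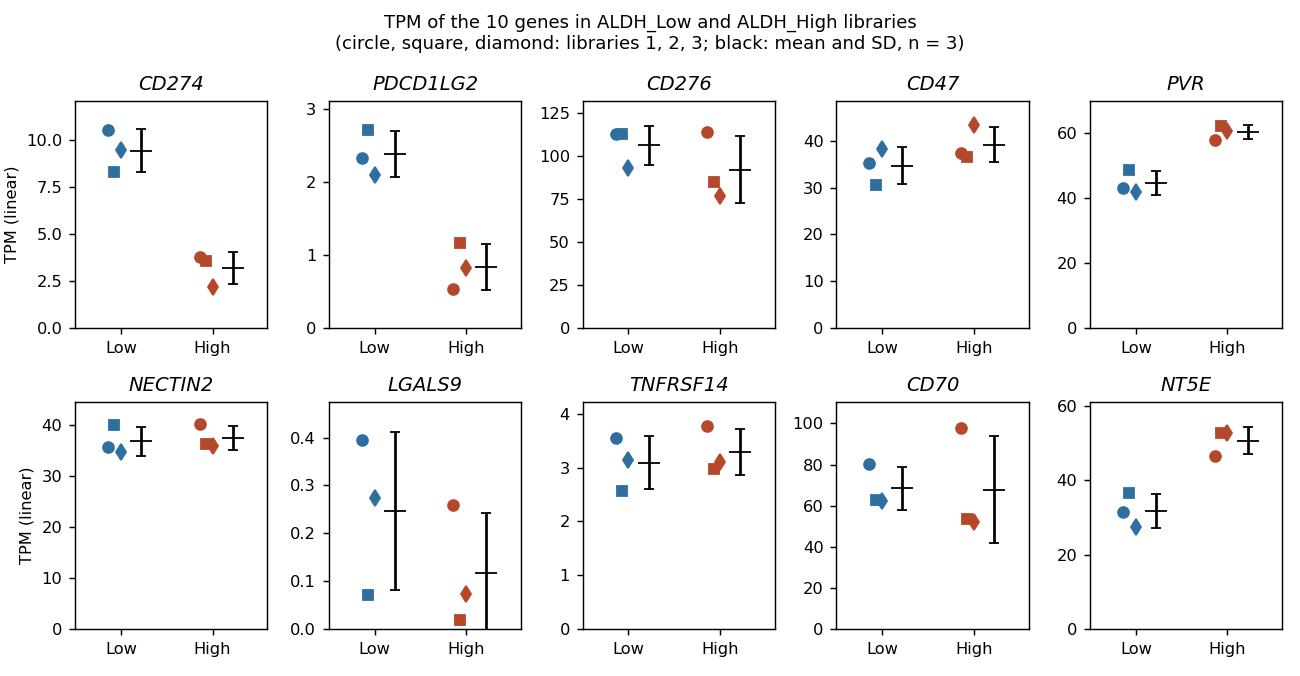
TPM (transcript abundance corrected for length; vertical axes linear from 0, a different scale in each panel) of the 10 genes in the 3 ALDH_Low (blue) and 3 ALDH_High (red) libraries, with the mean and SD of each group in black; the lower SD bar of LGALS9 in ALDH_High is clipped at 0. CD274 and PDCD1LG2 lie lower, and PVR and NT5E higher, in every ALDH_High library than in every ALDH_Low library.

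Measured per length, CD276 was the most abundant of the 10 transcripts in both groups, at 92.0 ± 19.4 TPM in ALDH_High and 106 ± 11.3 TPM in ALDH_Low (SD, n = 3). The order after it in ALDH_High was CD70 (67.7), PVR (60.2), NT5E (50.7), CD47 (39.1) and NECTIN2 (37.4), and then TNFRSF14 (3.29), CD274 (3.19), PDCD1LG2 (0.843) and LGALS9 (0.117 TPM). Library ranges overlapped there between CD276 and CD70, CD70 and each of PVR and NT5E, CD47 and NECTIN2, and TNFRSF14 and CD274. In ALDH_Low the order was CD276, CD70 (68.5), PVR (44.6), NECTIN2 (36.8), CD47 (34.7), NT5E (31.8), CD274 (9.41), TNFRSF14 (3.09), PDCD1LG2 (2.39) and LGALS9 (0.246 TPM), and the ranges of NECTIN2, CD47 and NT5E overlapped each other, as did those of TNFRSF14 and PDCD1LG2. The summed TPM of the 10 genes was 355 ± 41.3 in ALDH_High and 338 ± 22.2 in ALDH_Low (SD, n = 3; exact two-sided permutation p = 0.7). CD274 made up 0.896 ± 0.205% of this sum in ALDH_High and 2.79 ± 0.342% in ALDH_Low, and NT5E 14.5 ± 2.52% and 9.40 ± 1.02% (SD, n = 3).

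CD274 (ENSG00000120217, chromosome 9, 5450503 to 5470566, GRCh38, plus strand), the gene of PD-L1, was 3.03-fold lower in ALDH_High. Its level was 3.80, 3.58 and 2.20 TPM in ALDH_High libraries 1, 2 and 3 and 10.5, 8.27 and 9.43 TPM in ALDH_Low libraries 1, 2 and 3. Every ALDH_High value lay below every ALDH_Low value, and the highest of the ALDH_High values was under the lowest ALDH_Low value by more than the range within either group. The log2 fold change was -1.60 (SE 0.26, 95% interval -2.18 to -1.02, edgeR adjusted p 0.00176), on 69 to 116 counts in an ALDH_High library and 241 to 397 in an ALDH_Low library. Each of the 15 alternatives called it lower, from -1.78 to -1.33 on the log2 scale, with adjusted p no higher than 0.0187. An exact two-sided permutation test on CPM returned p = 0.1, the lowest value possible with 3 libraries a group.

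PDCD1LG2 (ENSG00000197646, chromosome 9, 5510531 to 5571282), the gene of PD-L2, was 2.92-fold lower in ALDH_High. The levels were 0.537, 1.17 and 0.824 TPM in ALDH_High libraries 1, 2 and 3 and 2.34, 2.72 and 2.10 TPM in ALDH_Low libraries 1, 2 and 3, again without overlap. The log2 fold change was -1.54 (SE 0.29, 95% interval -2.20 to -0.89, edgeR adjusted p 0.00445). Counts were low, at 23 to 62 in ALDH_High and 99 to 143 in ALDH_Low, and in limma on log2(TPM + 1) without a filter on low TPM the difference was -0.89 with an adjusted p of 0.0738, the highest of 15 alternatives, of which 14 passed. The authors deposited log2 coefficients of each group against another group that is not analysed here. Taken as ALDH_High minus ALDH_Low, they differed by -1.58 for CD274 and -1.53 for PDCD1LG2. These coefficients describe the same groups and are not an independent check.

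CD274 and PDCD1LG2 are neighbours, 39964 bases apart with 0 protein-coding genes between them in GENCODE 44. No other gene tested within 1 Mb of either was called lower. Of the 14 other genes tested within 1 Mb of CD274, 13 did not pass, with log2 fold changes from -0.42 to 0.31. The lowest was that of PLPP6 (edgeR adjusted p 0.0627). The remaining one, the glutamate transporter gene SLC1A1, was higher in ALDH_High (2.09, edgeR adjusted p 0.000121). JAK2, 320555 bases away and a kinase of the interferon receptor, had -0.12 (adjusted p 0.687), and PLGRKT, the nearest at 12578 bases, -0.09 (adjusted p 0.729). The ratio of CD274 to PDCD1LG2 in TPM was 7.09, 3.07 and 2.67 in ALDH_High libraries 1, 2 and 3 and 4.51, 3.04 and 4.48 in ALDH_Low, so the groups overlapped (exact two-sided permutation p = 0.9).

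**Figure D2:**
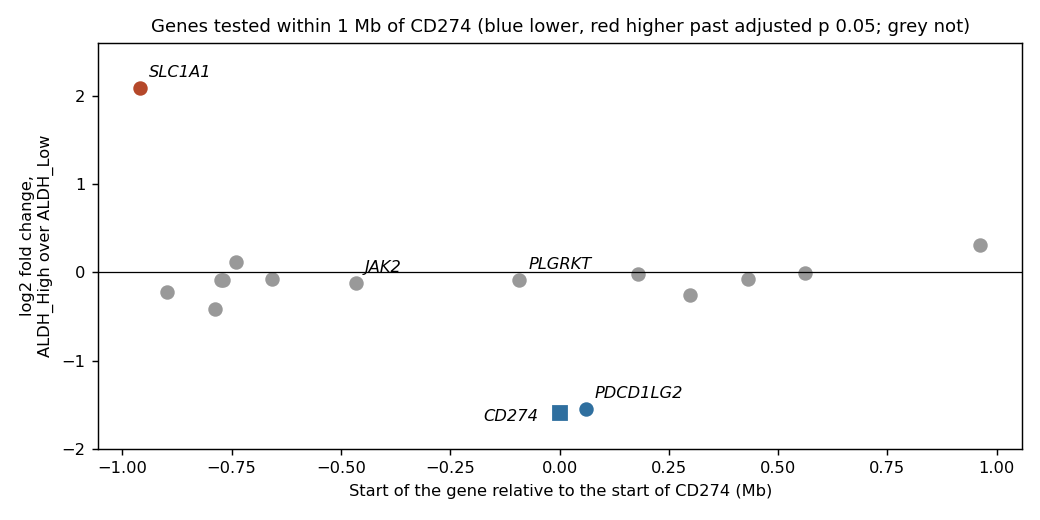
Log2 fold change (ALDH_High over ALDH_Low, vertical axis) of the genes tested within 1 Mb of CD274 against the distance of their starts from that of CD274 in Mb (horizontal axis), with genes past the threshold in colour. CD274 and PDCD1LG2 lie near -1.6 and -1.5, and the 13 grey genes between -0.42 and 0.31.

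NT5E (ENSG00000135318, chromosome 6, 85449584 to 85495791), whose product CD73 turns AMP into adenosine, was 1.54-fold higher in ALDH_High. It stood at 46.6, 52.7 and 52.8 TPM in ALDH_High libraries 1, 2 and 3 and at 31.5, 36.5 and 27.4 TPM in ALDH_Low libraries 1, 2 and 3. The ALDH_High libraries were all higher. Its log2 fold change was 0.62 (SE 0.12, 95% interval 0.37 to 0.88, edgeR adjusted p 0.00380), with 0.55 to 0.72 and adjusted p up to 0.0325 over 15 alternatives, all of which passed. Of the 7 other genes tested within 1 Mb of NT5E, 0 were called higher and 1 lower, beside 10.8% and 9.83% over all genes tested. The authors' deposited coefficients for NT5E, each against another group, differed by 0.64 as ALDH_High minus ALDH_Low.

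PVR (ENSG00000073008, chromosome 19, 44643798 to 44666162), the gene of the poliovirus receptor CD155, was 1.31-fold higher. Levels were 57.9, 62.2 and 60.6 TPM in ALDH_High libraries 1, 2 and 3 and 43.0, 48.7 and 42.0 TPM in ALDH_Low libraries 1, 2 and 3, with no overlap. The log2 fold change of PVR was 0.39 (SE 0.10, 95% interval 0.15 to 0.62, edgeR adjusted p 0.0255). This call did not survive the removal of ALDH_High library 2 (0.40, adjusted p 0.0798), ALDH_Low library 1 (0.36, 0.0898) or ALDH_Low library 3 (0.37, 0.0798); over all 15 alternatives adjusted p ran from 0.00473 to 0.0898. NECTIN2 (ENSG00000130202), which shares receptors with PVR and lies 180012 bases from it, had 40.2, 36.2 and 35.8 TPM in ALDH_High and 35.6, 40.1 and 34.7 TPM in ALDH_Low. Its groups overlapped, and its log2 fold change was -0.02 (95% interval -0.30 to 0.26, edgeR adjusted p 0.941). The difference between PVR and NECTIN2 in response was not tested.

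**Figure D3:**
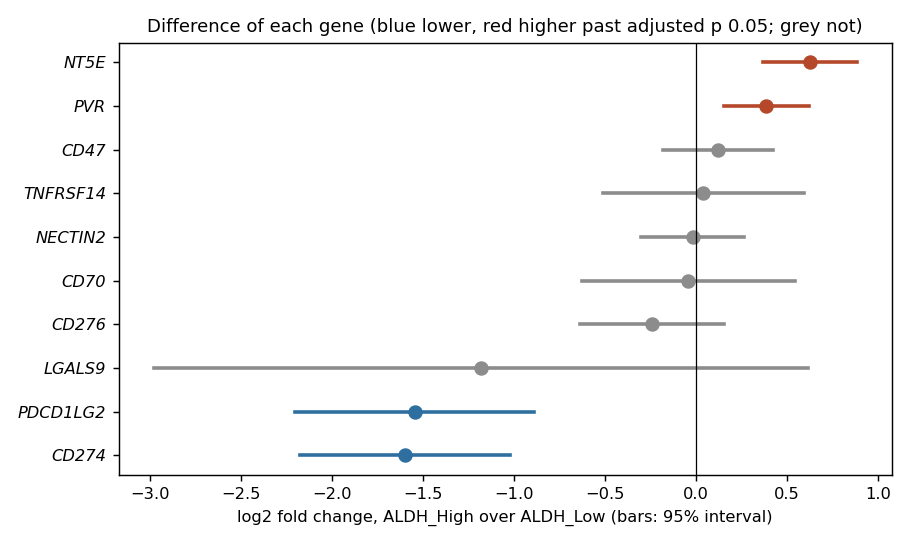
Log2 fold change (ALDH_High over ALDH_Low) of each of the 10 genes with its 95% interval from the edgeR fit, coloured where the adjusted p is below 0.05. The intervals of CD274, PDCD1LG2, PVR and NT5E exclude 0, and that of LGALS9 runs from -2.98 to 0.62.

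The remaining genes did not pass, and their intervals differ in how much they leave possible. CD47, the signal that holds back phagocytosis, had 37.4, 36.5 and 43.4 TPM in ALDH_High and 35.1, 30.5 and 38.3 TPM in ALDH_Low libraries 1, 2 and 3, with a log2 fold change of 0.12 (95% interval -0.18 to 0.42, edgeR adjusted p 0.599). The CD47 groups overlapped. TNFRSF14, the gene of HVEM, which binds BTLA, CD160 and LIGHT, lay between 2.97 and 3.78 TPM in ALDH_High and between 2.57 and 3.55 TPM in ALDH_Low (log2 fold change 0.04, 95% interval -0.51 to 0.59, edgeR adjusted p 0.935). LGALS9, the gene of galectin-9, had 9, 1 and 3 counts in ALDH_High and 20, 3 and 10 in ALDH_Low, and its interval for the log2 fold change, -2.98 to 0.62, allows a wide range in both directions (edgeR adjusted p 0.358). Without ALDH_High library 1 its log2 fold change was -2.42 (edgeR adjusted p 0.0831), against -1.18 with all 6 libraries, and leaving out ALDH_High library 2 or ALDH_Low library 1 gave -0.63 and -0.62. No difference in LGALS9 passed the threshold in any of these fits, and its near-identical copies LGALS9B and LGALS9C, with at most 5 and 2 counts, make its few counts uncertain.

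For CD276 and CD70, ALDH_High library 1 stood apart. CD276, the gene of B7-H3, had 114 TPM in that library, beside 85.2 and 76.9 TPM in ALDH_High libraries 2 and 3 and 113, 113 and 93.4 TPM in ALDH_Low libraries 1, 2 and 3. CD70, the ligand of CD27 on T cells, had 97.7 TPM there, beside 53.4 and 51.9 TPM in ALDH_High libraries 2 and 3 and 80.5, 62.8 and 62.2 TPM in ALDH_Low. With all 6 libraries the log2 fold changes were -0.24 for CD276 (95% interval -0.64 to 0.15, edgeR adjusted p 0.397) and -0.04 for CD70 (95% interval -0.63 to 0.54, edgeR adjusted p 0.935). Without ALDH_High library 1 they were -0.48 (edgeR adjusted p 0.0136) and -0.46 (edgeR adjusted p 0.0367). In that fit 4 of the 10 genes (CD274, PDCD1LG2, CD276 and CD70) were called lower and NT5E and PVR higher. Over all genes, 4221 of 17788 were called in either direction there. It was the only alternative of 15 in which CD276 or CD70 passed. With the replicate number as a block, CD276 had -0.27 (edgeR adjusted p 0.219) and CD70 -0.12 (edgeR adjusted p 0.677). Over all 15, the adjusted p of CD276 reached 0.817 and that of CD70 0.956.

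**Figure D4:**
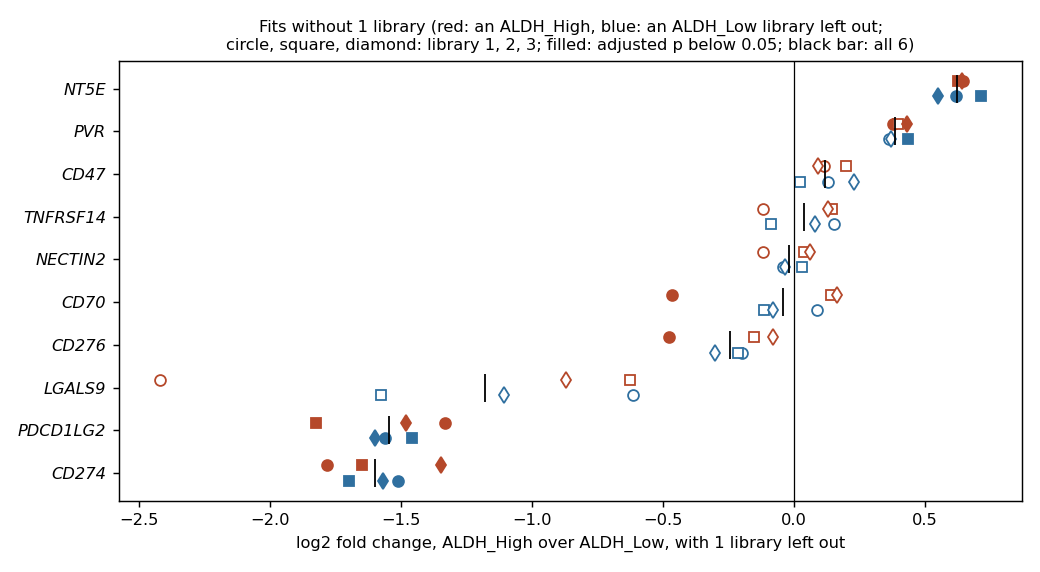
Log2 fold change (ALDH_High over ALDH_Low, horizontal axis) of each of the 10 genes in the 6 fits that each left out 1 library, with filled symbols where the adjusted p is below 0.05 and a black bar for the fit with all 6. CD274, PDCD1LG2 and NT5E are filled throughout, PVR is open in 3 of the fits, and CD276 and CD70 are filled only without ALDH_High library 1.

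The nearest expression patterns were sought for the 3 genes with the smallest p, as the distance between centred log2 CPM over the 6 libraries among 14035 genes; the libraries and the group difference are shared by all of them. For CD274 they were AREG (distance 0.295), TSPAN10 (0.338) and FLJ20021 (0.417), for NT5E PLAGL2 (0.0642), FAM172A (0.0808) and UTP20 (0.101), and for PDCD1LG2 TCHH (0.242), GGT1 (0.334) and PTX3 (0.403).

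Of 16 regulators of CD274, all tested, 1 was lower and 2 higher. The counts called in this and the other pathway lists stand beside 9.83% lower and 10.8% higher over all genes tested. With so few genes per list, they cannot be read as properties of the lists. IRF1, a transcription factor induced by interferon, fell by 1.28 on the log2 scale (SE 0.15, edgeR adjusted p 0.000222). ALDH_High libraries 1, 2 and 3 read 13.3, 12.7 and 9.91 CPM for it, all below the 28.3, 28.4 and 30.3 CPM of ALDH_Low. IFNGR2, a chain of the interferon gamma receptor, rose (0.79, SE 0.15, edgeR adjusted p 0.00426), while IFNGR1 had 0.19 (adjusted p 0.414). STAT3 had 0.37 (edgeR adjusted p 0.0414) and lost the call in 7 of 15 alternatives, among them the fits without ALDH_High library 2 or 3 and without each ALDH_Low library, with adjusted p up to 0.124. JAK1 (-0.12, adjusted p 0.554) and JAK2 did not pass, and CMTM6, which keeps PD-L1 at the cell surface, had 0.06 (0.816).

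Among 20 other checkpoint ligands and enzymes, 11 were tested and 3 rose. CD200, whose receptor restrains myeloid cells, was read at 4.30, 5.18 and 4.34 CPM in the ALDH_High libraries but at 0.156, 0.134 and 0.180 CPM in those of ALDH_Low (4.85 on the log2 scale, SE 0.32, edgeR adjusted p 9.09e-06). HLA-E, the ligand of NKG2A, had 0.80 (edgeR adjusted p 0.00190) and shares sequence with other HLA class I genes, and RGMB, a partner of PD-L2, had 0.87 (edgeR adjusted p 0.000356). LGALS3, the gene of galectin-3, had -0.62 and did not pass (edgeR adjusted p 0.0897). CD80, CD86, VTCN1, FGL1, IDO1 and HLA-G stayed at 3 counts or fewer. Of the 12 TNF superfamily genes, 9 were tested: TNFRSF10A, a TRAIL receptor, was lower (-0.99, edgeR adjusted p 0.00244), and TNFSF18 was lower at 18 counts or fewer (-1.31, edgeR adjusted p 0.0484), a call lost in 10 of 12 alternatives, among them each fit without 1 library (adjusted p up to 0.233).

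In the nectin and nectin-like list, 6 of 7 genes were tested and 2 rose. CADM1, which binds CRTAM on activated lymphocytes, had 62.2, 57.9 and 67.5 CPM in ALDH_High, well above its 11.8, 12.9 and 18.7 CPM in ALDH_Low (2.11 on the log2 scale, edgeR adjusted p 3.48e-05), and CADM4 had 2.26 (edgeR adjusted p 1.01e-05). NECTIN1 (0.06, adjusted p 0.845) and NECTIN3 (0.33, 0.118) did not pass. On the side of the partner receptors, PDCD1 had 0 counts in all libraries and TIGIT at most 1, and of the 3 receptor genes tested among 14, 0 passed in edgeR or DESeq2 and 0 had an unadjusted edgeR p under 0.05. CD96, a receptor for PVR known from T and NK cells, was read at 111, 108 and 134 CPM in ALDH_Low, overlapping its 165, 119 and 132 CPM in ALDH_High (0.24, edgeR adjusted p 0.304), in libraries in which CD2 and NKG7 were at 0. CD226 had 0.71 (adjusted p 0.266) at 27 counts or fewer.

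All 9 genes of the CD47 list were tested, of which 4 rose and 1 fell, beside 10.8% higher and 9.83% lower over all genes tested. SIRPA, the receptor for CD47, had 52.4, 32.4 and 31.0 CPM in ALDH_High libraries, all above the 18.3, 19.0 and 15.5 CPM of ALDH_Low (1.13, SE 0.20, edgeR adjusted p 0.00325). It lies on chromosome 20, where the median log2 fold change was 0.25 over 437 genes tested. The medians of chromosomes 13 (0.33) and 18 (-0.33) and of the mitochondrial genes (-0.56) lay further from 0. None of the 10 checkpoint ligands lies on chromosome 20. The part of the chromosome in the difference of SIRPA was not tested. The integrin chain ITGB3 had 3.63 (edgeR adjusted p 0.000186), ITGAV 0.83 (0.00911) and THBS2 3.21 (0.000380), while LRP1, the phagocyte receptor for calreticulin, was lower, at 89.3, 64.6 and 65.5 CPM in ALDH_High against 144, 136 and 160 CPM in ALDH_Low (edgeR adjusted p 0.000885). QPCTL, the enzyme that modifies CD47 at its SIRP-alpha contact, had 0.27 (edgeR adjusted p 0.150) and the calreticulin gene CALR 0.14 (0.380).

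In the adenosine list, 11 of 14 genes were tested, with 1 higher and 2 lower. The receptors ADORA1 (-1.46, edgeR adjusted p 0.000246) and ADORA2B (-1.01, 0.00130) were lower in ALDH_High, against the direction of NT5E, and the nucleoside transporter SLC29A1 was higher (0.55, 0.00754). For ADORA2B the ALDH_High libraries gave 23.2, 17.4 and 19.1 CPM, each under the 46.5, 38.0 and 35.4 CPM of ALDH_Low. ENTPD1 (CD39), which makes the AMP that CD73 uses, had at most 27 counts (0.38, edgeR adjusted p 0.558). Of the 11 NK cell activating ligands, 9 were tested and RAET1E, a ligand of NKG2D, fell (-2.09, edgeR adjusted p 0.000642), while CD58 narrowly missed the threshold (0.59, adjusted p 0.0508).

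**Figure D5:**
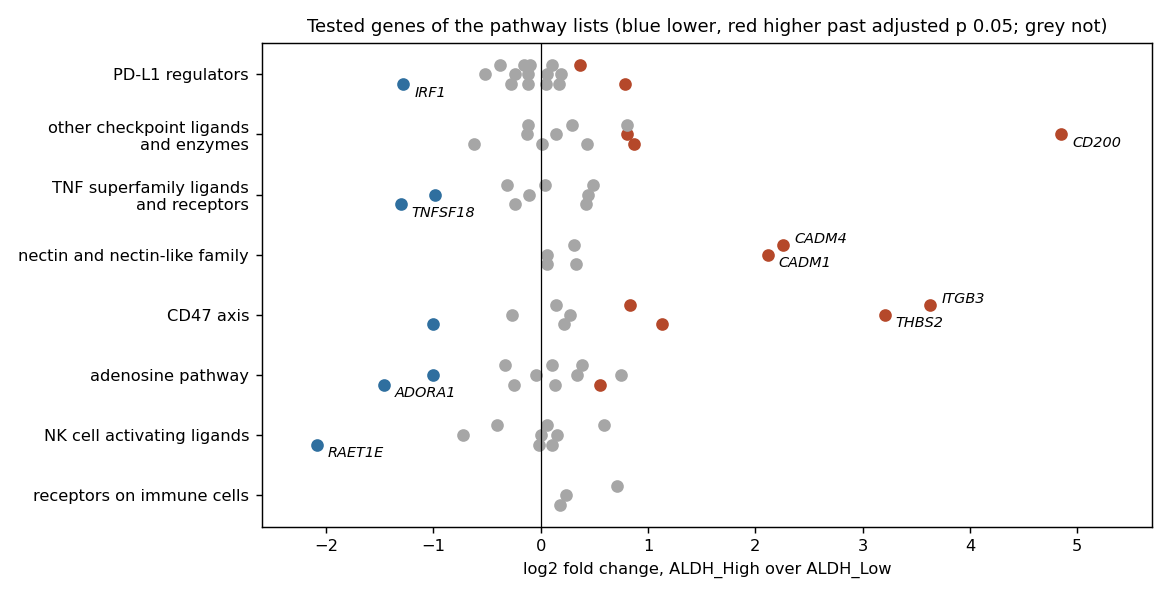
Log2 fold change (ALDH_High over ALDH_Low, horizontal axis) of the tested genes of the 8 pathway lists, 1 point per gene, coloured where the adjusted p is below 0.05. IRF1, ADORA1 and RAET1E are lower in ALDH_High, and CD200, ITGB3, THBS2, CADM4 and CADM1 have the largest values above 0.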

How the data were processed

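RNA was measured in 6 libraries of A375 cells, 3 ALDH_High and 3 ALDH_Low, grouped by their titles; nothing in the labels says that they come from separate cultures, so p-values measure the spread between these libraries. The labels' protocols give TruSeq stranded mRNA libraries from total RNA. The submitters' processing notes list FastQC 0.11.3, STAR 2.5.1b, HTSeq 0.6.1, DESeq2 and GRCh38 without saying what each did; the annotation is not given in the sources used here.

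The authors deposited whole-number counts per gene, used as estimated counts that had been rounded, since 133 to 177 genes per library had a count of 0 beside a TPM above 0; the design had assumed counts and the same test was used. The authors deposited TPM values with unstated gene lengths and, per the file headers, log2 coefficients of a DESeq2 model with groups not analysed here. Rows without a gene name (261, 0.0213% to 0.0267% of counts) stayed in. Columns with values per sample that were not used numbered 0.

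Genes kept by filterByExpr (17047) were scaled with TMM and compared by the two-sided quasi-likelihood test of edgeR 4.0.16 (glmQLFit, then glmQLFTest) with group as the only term; 0.05 was the threshold. CPM use TMM-scaled totals, except for markers, which use total counts. Standard errors are the log2 fold change over the square root of F, and 95% intervals use the fit's degrees of freedom. Counting limits cover counting error only, since reads carry no molecular identifiers. The fit was also run on counts simulated from the means and spread of these libraries. Since its settings came from the same data, that run cannot show whether the calls made here hold. Alternatives were DESeq2 1.42.0 size factors and Wald test, upper-quartile factors, other count filters, limma 3.58.1 on log2(TPM + 1) or log2(TPM + 0.1), a replicate block and each library left out.

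The 10 genes and the 8 pathway lists were chosen with earlier results of these data known. Named genes are the 10, the 4 with the smallest p past the threshold in each list, set partners (such as CMTM6, JAK2, CD226 and PDCD1) and the 3 nearest patterns; genes named beyond this, such as JAK1, CALR, CD96, CD58, SLC1A1, PLGRKT and those at or near 0 counts, were chosen after their values were seen. Positions are from GENCODE 44 on GRCh38.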

Additional observations from a re-analysis of the deposited data

How the results depend on the processing

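CD274, NT5E and CD47 kept their direction and their side of the threshold in all 15 alternatives, and LGALS9 in the 12 that gave it a value. With limma, pseudocount 1 and every gene with any TPM kept, PDCD1LG2 had -0.89 and no longer passed, leaving 1 gene of the 10 called lower, with 1155 genes higher and 851 lower over all genes; this pseudocount compresses genes with low TPM by construction, and CD200, THBS2 and RAET1E read 2.15, 0.97 and -1.36 there and still passed. Limma on TPM with a mean of at least 1 gave 1047 lower genes (pseudocount 1) and 1051 (pseudocount 0.1), against 1675; the cause was not tested. NECTIN2, near 0, changed sign to 0.025 in limma with the filter at either pseudocount, and without the filter at pseudocount 1. TNFRSF14 changed sign to -0.010 with upper-quartile factors, which moved the median of all genes to -0.062.

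Across the fits that each left out 1 library, log2 fold changes ran from 0.36 to 0.44 for PVR, -0.48 to -0.081 for CD276, -0.46 to 0.16 for CD70, -2.42 to -0.62 for LGALS9, -0.12 to 0.062 for NECTIN2 and -0.12 to 0.15 for TNFRSF14. The 10 genes then held 1 to 2 called higher and 2 to 4 called lower, against 1306 to 2172 and 1073 to 2049 over all genes; 1073 came without ALDH_High library 2. Pathway genes lost their call in 18 of 278 refits, all for STAT3, TNFSF18 or ITGAV, and 0 reversed. The fits without a library assume that a pair of libraries varies like the trio beside it.

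With the replicate number as a block, 3748 genes were called against 3513, and the calls of the 10 genes did not change; STAT3 and TNFSF18 missed the threshold. Libraries of equal number deviated together with correlations of 0.15, 0.076 and 0.11, and those of unequal number with correlations from -0.10 to 0.023. Each library thus correlated best with its own number. Pairing was not assumed in the main fit, since the labels give groups and replicate numbers but no covariate. The correlations do not exclude a pairing. Depth limited LGALS9 most, at 20 counts or fewer.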
